A study of Arabidopsis thaliana with 4 samples.

Results

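Membrane transporter genes were examined in inflorescences of the Arabidopsis thaliana floral mutant apetala1 and of the wild type. Features belonged to the set when every gene in a probe's annotation had a symbol or synonym that starts with one of the chosen transporter stems, such as ABCG, PIP, CHX, GLR, NRT or ZIP, followed by a number. This rule found 22 probes among 26474, and they stand for 25 of the 14034 genes annotated to any probe. Of the 22, 9 are annotated to 1 gene each and 13 to several genes. All 22 had enough values to be tested, so the set is 22 of the 25415 features tested.

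APETALA1 is a MADS-box transcription factor that specifies floral meristems and the outer floral organs. The study hybridised total RNA of apetala1 inflorescences together with total RNA of wild-type inflorescences on 4 two-colour oligonucleotide arrays, named sets 1 to 4. The mutant RNA was in channel 1 on sets 1 and 3. On sets 2 and 4 the channels were exchanged. No label gives an allele, accession, plant age, flower stage or number of plants, and none tells whether the 4 sets stem from separate plants. The p-values therefore reflect the array-to-array spread alone, drawn in part from all features, and that spread can be technical. The arrays report ratios and no levels, and in whole inflorescences fewer cells of a type and less RNA per cell cannot be told apart.

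Every value below is a log2 ratio in the sign of sets 1 and 3, with sets 2 and 4 multiplied by -1. The labels name neither the dyes nor the numerator, so a positive value is not assigned to mutant or wild type. The turning follows the channel order of the labels and was chosen with earlier results of these data known. If the deposited columns already shared one orientation, the signs on sets 2 and 4 would be the opposite of those given.

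Membrane transporters move ions, metals, sugars, nitrogen compounds and hormones across the plasma membrane, the vacuole and other endomembranes. Flowers depend on them for loading sugar and minerals into growing organs, for the ion fluxes of pollen and guard cells and for nectar secretion. The members measured here fall into 5 families. CHX proteins exchange potassium and other monovalent cations for protons, and many of their genes are known from pollen. GLR proteins are glutamate receptor-like cation channels, gated by amino acids and permeable to calcium. NPF proteins, also called the NRT1/PTR family, are proton-coupled carriers of nitrate, peptides and hormones. ZIP proteins carry zinc and other divalent metals into the cytosol, and PUP proteins carry purines and their derivatives, cytokinins among them.

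The probe annotation covered a small part of the transporter gene families. The gene table held 431 genes whose names match the rule, and 26 of these were listed for any annotated probe. None of the 127 ABC transporter genes, the 53 genes with aquaporin names (PIP, TIP, NIP or SIP) or the 30 genes with AHA or ACA names was listed, so these classes were not analysed here. CHX and NHX names accounted for 34 genes, of which 6, all CHX, were on member probes. KUP, CNGC and GLR names accounted for 51 genes, of which 8, all GLR, were on member probes. Another 3 probes listed a matching gene beside genes that do not match and were left out.

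No transporter feature passed the test for a difference between the RNAs. Of the 22 features, 0 passed an adjusted p of 0.05 in limma, a background of 0.22 percent over all features, which were 56 of 25415. That background itself depends on the arrays and the fit. It was 0 features without replicate 1, 1 without replicate 2, 1 with a term for channel order and 140 among features with a value on all 4 arrays. At an unadjusted limma p under 0.05 there was 1 member of 22, against 16.3 percent of all features. Positive means were found for 10 members and negative means for 12. Their median log2 ratio was -0.07, beside -0.02 for all features, and the median absolute ratio was 0.18 for both. The means ran from -0.53 to 0.50, so 0 of 22 reached 1 in absolute value, which 2.66 percent of all features did. These counts describe the set and single out nothing in it from the other features.

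**Figure D1:**
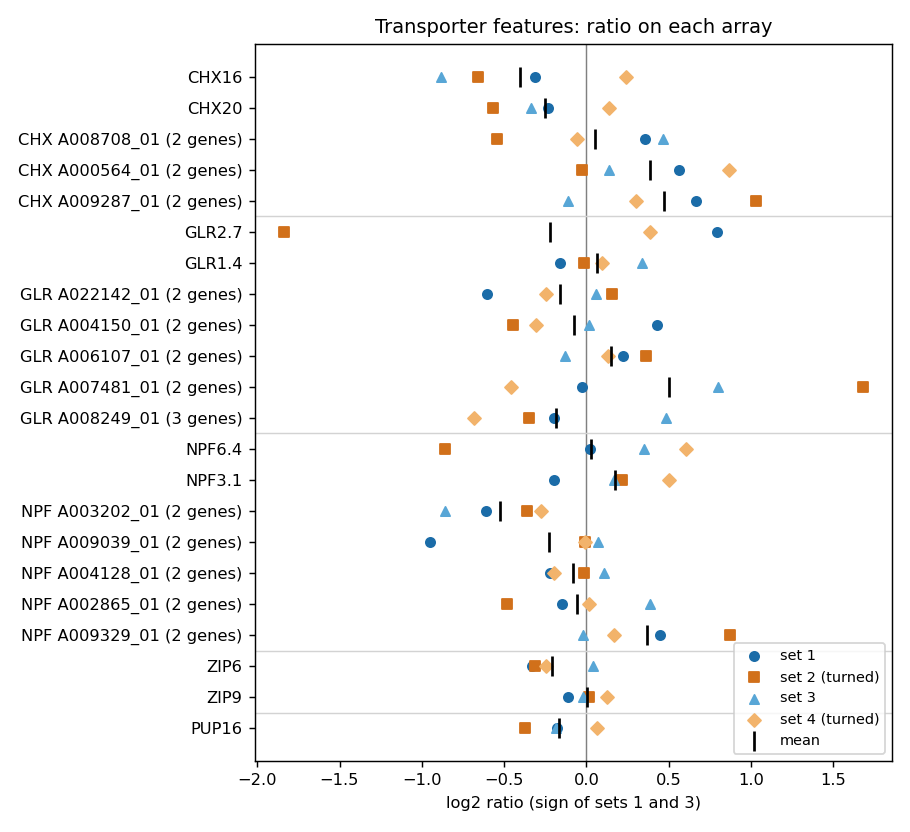
Log2 ratio of each of the 22 transporter features (rows, grouped by family) on sets 1 to 4 (symbols), in the sign of sets 1 and 3, with the mean as a black bar. Values lie on both sides of 0 for every feature except NPF probe A003202_01, which is below 0 on all 4 arrays.

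The arrays rarely agreed in sign on a transporter. Of the 21 members with a value on all 4 arrays, 1 had the same sign on each, against a background of 27.3 percent of all features. Several member probes list the same genes, so no share over the members is one of independent features. The per-array medians of the members were -0.15, -0.17, 0.06 and 0.08 on sets 1 to 4. The spread between arrays had a median SD of 0.37 over the members, beside 0.29 over all features. None of the member values lay at the limits of the deposited scale, and 1 value, that of GLR2.7 on set 3, was missing.

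The CHX family of cation/proton exchangers had 5 features. Of these, 3 were positive, 2 were negative and 0 were called, and their median was 0.06. CHX16 (AT1G64170), 1 of 2 CHX genes with a probe of their own, had -0.31, -0.66, -0.88 and 0.24 on sets 1 to 4. Its first 3 arrays were negative and set 4 was positive, so the arrays lay on both sides of 0. The mean was -0.40 ± 0.49 (SD, n = 4; limma adjusted p = 0.393), with a 95% interval from -0.90 to 0.10. CHX20 (AT3G53720), known from guard cells, where it acts in osmoregulation during stomatal opening, had -0.24, -0.57, -0.33 and 0.14. Set 4 was again its only positive array. Its mean of -0.25 ± 0.29 (limma adjusted p = 0.455) had an interval from -0.61 to 0.11.

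The other 3 CHX features were probes annotated to 2 CHX genes each, whose transcripts they cannot separate. Probe A009287_01 had 0.67, 1.03, -0.11 and 0.30 on sets 1 to 4, with set 3 alone below 0. Its mean, 0.47 ± 0.49 (limma adjusted p = 0.331), was the highest of the CHX family, and the interval ran from -0.03 to 0.97. Probe A000564_01 had 0.56, -0.03, 0.14 and 0.87, a mean of 0.38 ± 0.41 (adjusted p = 0.358), with set 2 close to 0 and the other arrays positive. Probe A008708_01, annotated to the same 2 genes as A000564_01, had 0.36, -0.54, 0.47 and -0.06. Its sets 1 and 3 were positive and its sets 2 and 4 negative, and the mean was 0.06 ± 0.46 (adjusted p = 0.915).

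The GLR family had 7 features. Of these, 3 were positive, 4 were negative and 0 were called, and their median was -0.08. GLR1.4 (AT3G07520), a cation channel shown in frog oocytes to open on binding methionine and other amino acids, had -0.16, -0.01, 0.34 and 0.09 on sets 1 to 4. These values straddled 0 closely, with a mean of 0.06 ± 0.21 (limma adjusted p = 0.838) and an interval from -0.25 to 0.38. GLR2.7 (AT2G29120), of a clade linked to calcium signals in immunity, had 0.79, -1.84 and 0.39 on sets 1, 2 and 4. Set 2 stood on the opposite side of 0 from both other arrays. The mean of these 3 arrays was -0.22 ± 1.42 (limma adjusted p = 0.872), and the interval from -1.62 to 1.18 was the widest of the 22 members. With a term for channel order in the fit, this mean was 0.03, on the other side of 0.

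GLR2.7 and the other genes of its cluster were also read by shared probes. A probe for 3 GLR genes, A008249_01, whose annotation includes GLR2.7, had -0.20, -0.35, 0.48 and -0.68 on sets 1 to 4. These 3 genes follow each other in the gene table (assembly TAIR10.1) with 0 coding genes between them. Its mean of -0.19 ± 0.49 (limma adjusted p = 0.690) came from 3 negative arrays and a positive set 3. Probe A006107_01, annotated to 2 of the same 3 genes, had 0.23, 0.37, -0.13 and 0.13, with a mean of 0.15 ± 0.21 (adjusted p = 0.609). Where A008249_01 was negative, on sets 1, 2 and 4, A006107_01 was positive, and on set 3 the signs were exchanged.

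The largest positive mean of the 22 members, 0.50 ± 0.95 (limma adjusted p = 0.529), belonged to GLR probe A007481_01. It is annotated to 2 neighbouring GLR genes, and its values on sets 1 to 4 were -0.03, 1.68, 0.80 and -0.46. Sets 2 and 3 were high and set 4 was low, so the interval ran from -0.37 to 1.37. The mean was 0.10 without replicate 2 and 0.82 without replicate 4. Without replicate 2 or replicate 3 it was below CHX probe A009287_01. The last 2 GLR features share an annotation of 2 genes of clade 3, a clade known for electrical signals after wounding. Probe A004150_01 had 0.43, -0.44, 0.02 and -0.31, a mean of -0.08 ± 0.39 (adjusted p = 0.861). Probe A022142_01 had -0.60, 0.16, 0.06 and -0.25, a mean of -0.16 ± 0.34 (adjusted p = 0.663).

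The NPF carriers were read by 7 features, of which 0 were called. Positive means were seen in 3 and negative means in 4, around a median of -0.06. NPF3.1 (AT1G68570), known to carry gibberellin and nitrite, had -0.20, 0.21, 0.17 and 0.50 on sets 1 to 4. Set 1 was negative and the others positive, for a mean of 0.17 ± 0.29 (limma adjusted p = 0.602) and an interval from -0.19 to 0.53. NPF6.4 (AT3G21670), a nitrate carrier also named NRT1.3, had 0.02, -0.86, 0.35 and 0.61. Its arrays spread widely around a mean of 0.03 ± 0.64 (limma adjusted p = 0.966), with set 2 far below the others.

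NPF probe A003202_01 was the 1 member with the same sign on every array and the 1 member with an unadjusted limma p under 0.05. It is annotated to 2 NPF genes of clade 5, which includes carriers of nitrate out of the vacuole, and these genes are neighbours in the gene table with 0 coding genes between them. Values were -0.61, -0.36, -0.86 and -0.28 on sets 1 to 4. All were negative, with set 3 the lowest and set 4 the closest to 0. The mean was -0.53 ± 0.26 (SD, n = 4), the largest in absolute value of the 22, with an interval from -0.87 to -0.18. This mean corresponds to a 1.44-fold difference between the RNAs, in the direction of a linear ratio below 1. As linear ratios the interval ran from 0.547 to 0.882, and its farther end was a 1.83-fold difference. The unadjusted p was 0.00988 and the limma adjusted p over all 25415 features was 0.189, so the feature did not pass. With no array turned, the mean was -0.21 and the unadjusted p 0.449.

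Clade 4 of the NPF family, which includes carriers of abscisic acid and gibberellin, was read by 4 probes, each annotated to 2 genes. Probe A009329_01 had 0.45, 0.87, -0.02 and 0.17 on sets 1 to 4, a mean of 0.37 ± 0.39 (limma adjusted p = 0.364), with set 3 near 0 and the other arrays positive. Probe A009039_01, annotated to the same 2 genes, had -0.95, -0.01, 0.07 and -0.01. Here set 1 alone set the mean of -0.22 ± 0.48 (adjusted p = 0.619), which was 0.02 without it. Probes A002865_01 and A004128_01 share the other annotation and had means of -0.06 ± 0.36 (adjusted p = 0.897) and -0.08 ± 0.16 (adjusted p = 0.770). The values of A002865_01 ran from -0.48 on set 2 to 0.39 on set 3, and those of A004128_01 from -0.22 on set 1 to 0.11 on set 3.

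The metal carriers of the ZIP family had 2 features, 1 on each side of 0 and 0 called, both with arrays close together. ZIP9 (AT4G33020), a zinc-deficiency-induced member, had -0.11, 0.02, -0.02 and 0.13 on sets 1 to 4, a mean of 0.00 ± 0.10 (limma adjusted p = 0.989). Its arrays all lay near 0, and its interval ran from -0.27 to 0.28. The farther end was a 1.21-fold difference, the narrowest bound of the 22. The interval reflects the array-to-array spread, which can be technical, so it does not limit the difference between the genotypes. Ratios hold no level, so whether this probe had signal was not tested. ZIP6 (AT2G30080) had -0.33, -0.31, 0.04 and -0.24. Set 3 was its only array above 0, and its mean was -0.21 ± 0.17 (limma adjusted p = 0.446), with an interval from -0.51 to 0.09. PUP16 (AT1G09860), the 1 purine permease measured, had -0.18, -0.37, -0.19 and 0.07. Its first 3 arrays were negative and set 4 was slightly positive, with a mean of -0.17 ± 0.18 (limma adjusted p = 0.543).

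**Figure D2:**
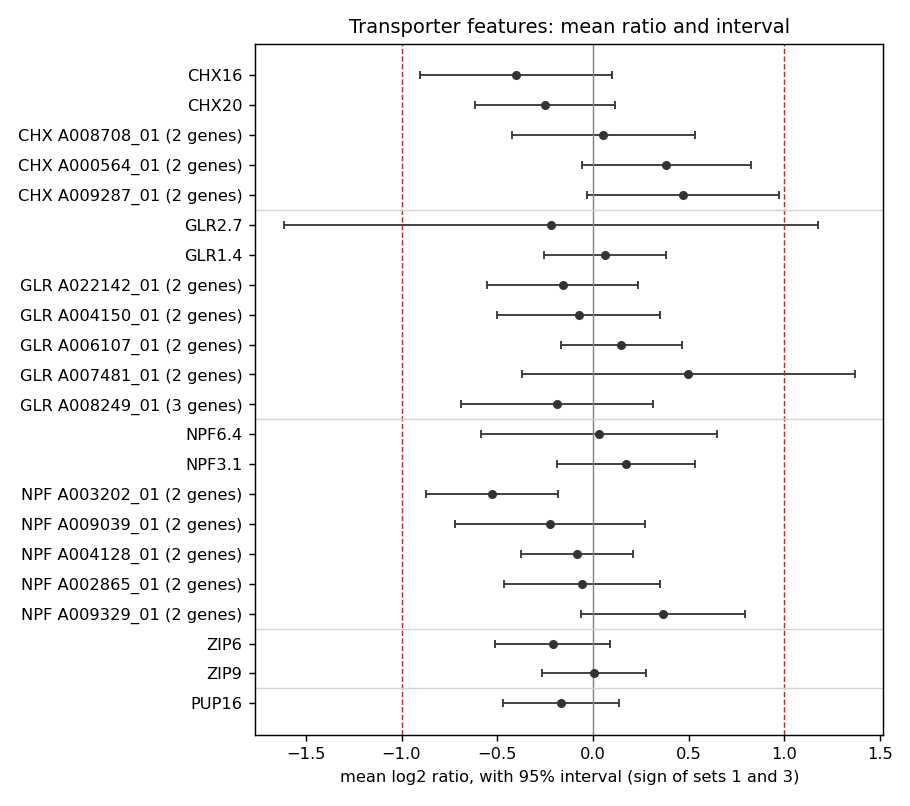
Mean log2 ratio (points) and 95% interval from limma (bars) of the 22 transporter features, grouped by family, in the sign of sets 1 and 3. Dashed lines mark a 2-fold difference. All intervals but those of GLR2.7 and GLR probe A007481_01 stay between these lines, and that of NPF probe A003202_01 does not reach 0.

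How large a difference these arrays leave room for can be read from the intervals, which are not adjusted for the number of features. The 95% interval lay within a 2-fold difference in either direction for 20 of the 22 members, or 90.9 percent, beside 84.3 percent of all features. The exceptions were GLR2.7 and GLR probe A007481_01, whose intervals reached 3.06-fold and 2.58-fold. Among the genes with a probe of their own, the farther bound was 1.30-fold for GLR1.4, 1.39-fold for PUP16, 1.42-fold for ZIP6, 1.45-fold for NPF3.1, 1.53-fold for CHX20, 1.57-fold for NPF6.4 and 1.87-fold for CHX16. These bounds hold for the turned ratios and reflect the array-to-array spread, which can be technical. A missed threshold or a narrow bound does not show that mutant and wild type were alike.

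The 2 channel orders were set beside each other for each member. In 3 of 21 members, sets 1 and 3 had one sign and sets 2 and 4 the other after turning, against a background of 11.7 percent of all features. The mean of sets 1 and 3 and the mean of sets 2 and 4 were 0.41 and -0.30 for CHX probe A008708_01 and 0.22 and -0.37 for GLR probe A004150_01. For ZIP9, the last of these members, they were -0.06 and 0.07. As deposited, before turning, these 3 members kept one sign on all 4 arrays. For NPF probe A003202_01 the means were -0.73 and -0.32, and for CHX16 they were -0.60 and -0.21, on the same side of 0 in both orders. A term for channel order called 0 members in limma, with a lowest adjusted p of 0.897, and 0 members had an unadjusted p under 0.05 for it. Over all 25415 features this term called 0, with 1156 of the 25415 at an unadjusted limma p under 0.05.

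**Figure D3:**
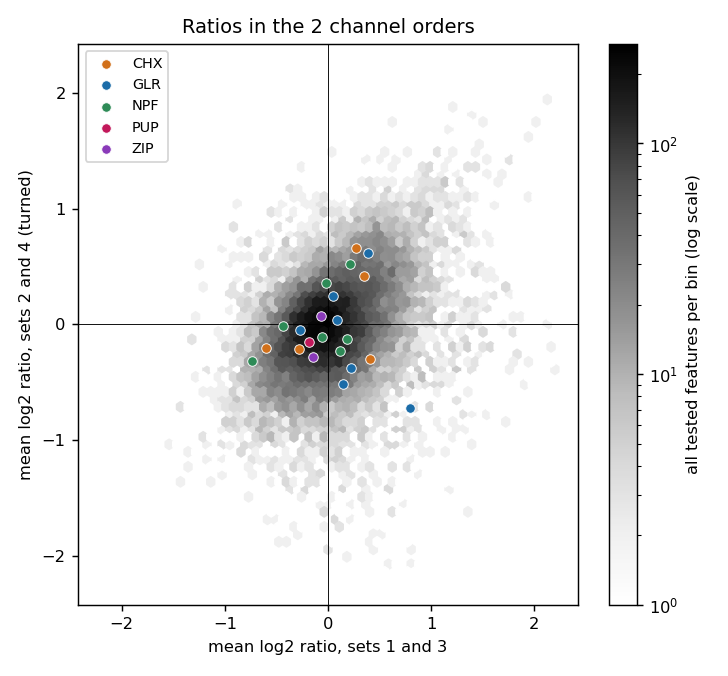
Mean log2 ratio on sets 1 and 3 (horizontal) against the mean on sets 2 and 4 after turning (vertical), for the transporter features by family (coloured points) over all tested features (grey bins, log scale of counts). Axes end at 2.2, which leaves out 271 of 25415 features. Members lie in all 4 quadrants around 0, and GLR2.7, with 1 value in its horizontal mean, lies lowest on the right.

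Probes with the same annotation give 2 readings of the same listed genes. Among the members, 4 pairs of probes list the same 2 genes. On 8 of the 16 array readings the 2 probes of a pair had the same sign, and in 3 of 4 pairs the means did. The same count was not made over all probe pairs of the platform, so no background stands beside it. The CHX pair differed by 0.33 ± 0.53 (SD over 4 arrays), and the GLR pair by 0.08 ± 0.68. For the GLR pair, set 1 read 0.43 on one probe and -0.60 on the other. Of the NPF pairs, one differed by 0.03 ± 0.34. The other differed by -0.59 ± 0.68 and had opposite signs on all 4 arrays, with a difference of 1.40 on set 1. Since each probe reads 2 genes, the genes' shares of its signal are not known, and the pairs do not measure probe error alone.

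**Figure D4:**
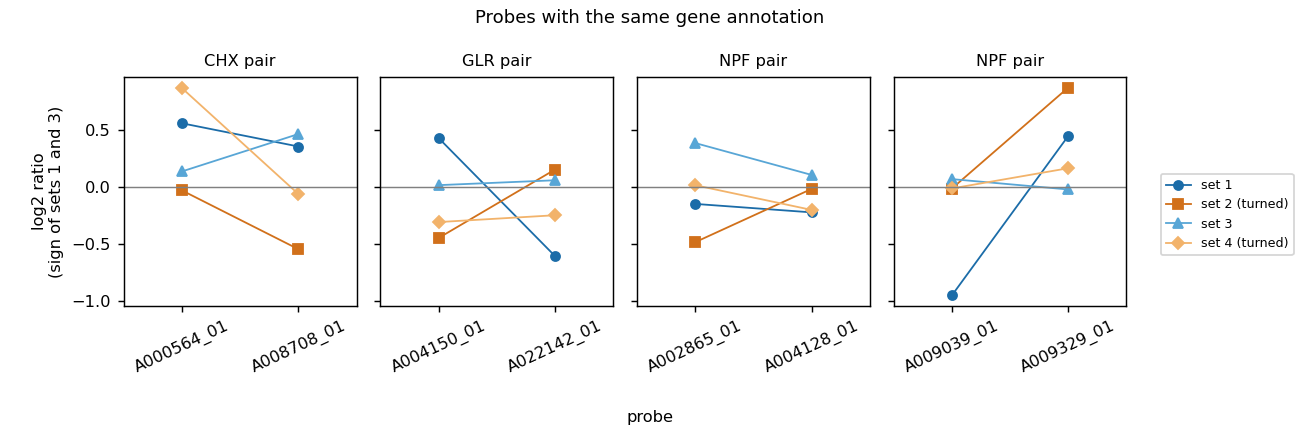
Log2 ratios on sets 1 to 4 (lines and symbols) for the 4 pairs of probes that share a gene annotation, in the sign of sets 1 and 3. Lines that cross 0 are arrays on which the 2 probes had opposite signs. The pair of A009039_01 and A009329_01 does so on all 4 arrays.

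Other transport genes were taken from a further list of stems, which matched SWEET sugar transporters, MTP metal carriers and NRAMP5. Of its 18 features, 17 were tested and 0 were called in limma. Means were positive for 12, or 70.6 percent, and negative for 5, beside 47.0 percent positive over all features. The median was 0.18 beside -0.02 for all features. An unadjusted limma p under 0.05 was reached by 5 of the 17, or 29.4 percent, beside 16.3 percent of all features. SWEET features were 14 of the 17, with 10 of the 12 positive means and 4 of these 5. Several SWEET probes list the same genes, so these shares are not those of independent features. The 5 features with an unadjusted p under 0.05 are named here after their values were seen. SWEET9 (AT2G39060), the sucrose exporter of nectaries, had 1.17, 1.06, 0.80 and 4.09 on sets 1 to 4. All arrays were positive, and set 4 lay far above the others. Its mean was 1.78 ± 1.55 (limma adjusted p = 0.231), and 1.01 without replicate 4 (adjusted p = 0.118). Without replicate 1, 2 or 3 it was 1.99, 2.02 and 2.11 (limma adjusted p = 0.482, 0.362 and 0.230).

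SWEET15 (AT5G13170), a senescence-associated sucrose transporter, had -0.31, 1.39, 0.97 and 1.47 on sets 1 to 4, with set 1 alone below 0. Its mean was 0.88 ± 0.82 (limma adjusted p = 0.263). NRAMP5 (AT4G18790), of a family of divalent metal carriers, had 0.63, 0.07, 0.25 and 0.96. All its arrays were positive, with a mean of 0.48 ± 0.40 (adjusted p = 0.272). SWEET probe A009891_01, for 2 genes, had 0.90, 0.73, 0.35 and 0.71 (mean 0.67 ± 0.23, adjusted p = 0.125). SWEET probe A022923_01, for 3 genes that include both of these, had 0.85, 0.86, 0.17 and 0.74 (mean 0.66 ± 0.33, adjusted p = 0.165). Both probes were positive on every array, and since they share genes they are not separate evidence.

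**Figure D5:**
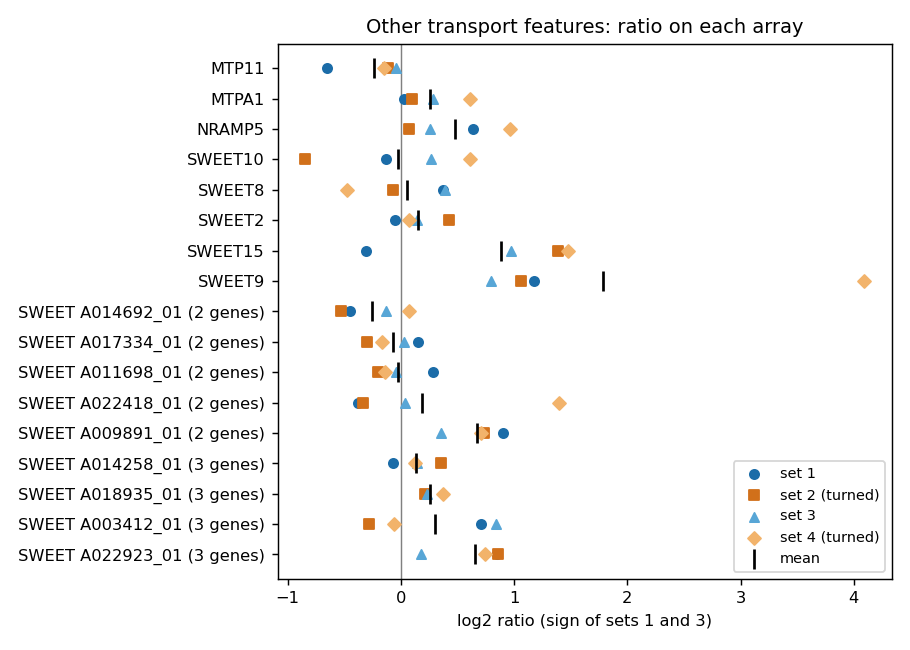
Log2 ratio of the 17 tested features of the further transport list (rows) on sets 1 to 4 (symbols), in the sign of sets 1 and 3, with the mean as a black bar. SWEET9 lies farthest from 0, at 0.80 to 1.17 on 3 arrays and 4.09 on set 4.

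Tissue markers with a probe of their own gave means of -0.30 ± 0.45 for ATA20 and -0.71 ± 0.88 for SHT (tapetum), 0.17 ± 0.32 for INO (ovule), 0.17 ± 0.50 for CLV3 (stem cells) and -0.28 ± 0.81 for LHB1B2 (green tissue). None was called, with limma adjusted p from 0.360 to 0.717. ATA20 and LHB1B2 were positive on sets 1 and 3 and negative on sets 2 and 4 after turning. As deposited, each kept one sign on all 4 arrays, so their negative means depend on the turning. Ratios hold no level, so these genes cannot show which cells were present, and their part in the transporter ratios was not tested. AP1 itself, AP3, PI and AG were not analysed here, so the mutated gene gave no check of the labels.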

How the data were processed

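The members and gene lists were chosen with earlier results of these data known. Total RNA of both genotypes was measured on 4 two-colour arrays. What the authors deposited is, per array, a log2 ratio between both channels. Per the labels' descriptions they were processed and normalized by a published method; that method's steps, its software and the dyes used are not given in the sources at hand. The base follows from the limits of plus and minus log2 of 100 (6.64). Column medians over probes were -0.00, 0.06, 0.04 and 0.03 on sets 1 to 4, so centring is not exact; direction stays unknown. There were 225, 933, 961 and 646 probe values at a limit on sets 1 to 4; these were left out. The number of arrays limits the precision.

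Control and empty rows were dropped, leaving 26474 probes. The platform annotation lists 1 gene for 5784 probes, several for 7497 and none for 13193; names were matched to the gene table of TAIR10.1 by gene ID, with 5756 single-gene probes found. Single-gene probes were averaged per gene. Features with values on at least 3 arrays were tested against 0 (two-sided; functions lmFit and eBayes, limma 3.58.1, R 4.3.3), with Benjamini-Hochberg adjustment over all 25415 features; those with an adjusted p below 0.05 are called. The p-values and intervals rest on variances that eBayes moderates over all features, while the SDs printed after ± are unmoderated. The fit was also run on simulated ratios with normal noise and planted changes. These held no missing values, limit values or channel-order effect, so the run checks the code and not how well the fit suits these arrays. The rule for named genes took called members, members with a mean of at least 1 and one sign on every array, and the 2 highest and 2 lowest of each subgroup; all 22 members are given. Alternatives changed the normalization, the filter, the limit values, the turning, the moderation of variance, the probe averaging and the arrays used.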

Additional observations from a re-analysis of the deposited data

Results flagged for a closer look

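Dixon's ratio was computed for 43 features to find any with 1 array far from the other 3. It picked out 3, and chance alone gives about 1 in 20. For NPF probe A009039_01 it was the log2 ratio of -0.95 on set 1, against -0.01 to 0.07 on the others. For SWEET9 it was 4.09 on set 4, against 0.80 to 1.17. For SWEET probe A018935_01, annotated to 3 genes, it was 0.37 on set 4, against 0.21 to 0.23 on the others.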

How the results depend on the processing

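Each array holds both RNAs, so the test of its ratio against 0 is already a paired comparison, and no further pairing of arrays was made. Under the 15 alternatives, 0 transporter features and 0 other transport features were called, and the lowest adjusted p of a member was 0.160. The median of the members ran from -0.13 to 0.05, and was -0.17 over the 9 features with 1 gene. The planned setting without members of another kind of protein was not run, since there were none to leave out. The 56 calls over all features became 18 with quantile normalization, 19 with arrays scaled to equal spread, 140 with a value on all 4 arrays, 109 with robust eBayes, 1 with limit values kept, 1 with a channel order term, 0 with no array turned (852 at an unadjusted p under 0.05) and 0 to 38 without 1 replicate. The cause was not tested.

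Of 326 values of members under alternatives, 299 kept their sign and 27 changed it, none called. With no array turned, 13 changed: CHX probes A000564_01 (-0.0350) and A009287_01 (-0.19), GLR probes A004150_01 (0.30), A006107_01 (-0.10), A007481_01 (-0.11) and A008249_01 (0.33), GLR2.7 (0.75), NPF probes A002865_01 (0.18), A004128_01 (0.0252) and A009329_01 (-0.15), NPF3.1 (-0.19), ZIP6 (0.0666) and ZIP9 (-0.0680). That setting also gave -0.0454 for the median of the other transport features, -0.80 for SWEET9, -0.55 for SWEET15, -0.0379 for NRAMP5, -0.0454 for SWEET probe A009891_01 and -0.15 for SWEET probe A022923_01. GLR2.7 was 0.00752 with quantile normalization and 0.0347 with the channel order term, and NPF probe A002865_01 was 0.00300 with array weights. Without 1 replicate, the ranges that crossed 0 were -0.0820 to 0.25 for CHX probe A008708_01, -0.24 to 0.0480 for GLR probe A004150_01, -0.0273 to 0.14 for GLR1.4, -0.20 to 0.0863 for NPF probe A002865_01, -0.32 to 0.0165 for NPF probe A009039_01, -0.16 to 0.33 for NPF6.4 and -0.0369 to 0.0419 for ZIP9.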
